A study of Bos taurus with 4 samples.

Results

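MHC class II genes encode the molecules that present peptides from outside the cell to CD4+ T cells. The 9 genes described here were taken by symbol from the 29792 rows of the count tables. They are the antigen-binding chains BOLA-DRA, BOLA-DRB3 and BOLA-DQB (BOLA is the bovine MHC), the peptide editors BOLA-DMA and BOLA-DMB, their inhibitors BOLA-DOA and BOLA-DOB, the invariant chain CD74, and CIITA, the coactivator that switches the class II genes on. QuantSeq 3′ mRNA-Seq, which reads only the 3′ ends of polyadenylated RNA, was run on total RNA of Hanwoo cows, a Korean cattle breed, with no treatment named. Small intestine, muscle and intestinal organoids at passages 5 (P5) and 10 (P10) were measured with 1 library per group. Age is given as over 24 months for every group, and the organoid donors were healthy. A basement membrane gel (Matrigel) with IntestiCult medium carried the cultures, which started from jejunal crypts. Which muscle was sampled, how many animals were used and whether tissue and organoids came from the same animal are not given in the sources used here.

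In this pathway, an alpha and a beta chain pair in the endoplasmic reticulum around CD74, which blocks the groove until proteases of the endosome cut it away. DM then exchanges the last fragment of CD74 for antigen peptides, and DO restrains DM. B cells, dendritic cells and macrophages carry class II at all times, while in many other cells, gut epithelium among them, interferon gamma can induce it through CIITA.

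The 9 genes summed to 73083 reads in intestine, 0.411% of the library, and to 1004 reads in muscle. They summed to 101 reads in P5 organoids and 156 reads in P10 organoids. In intestine 8 of the 9 genes had more than 3 reads and in muscle 6 did, but in each organoid library only BOLA-DMA and BOLA-DMB were above 3 reads and the other 7 had no read. As counts per 1000000 reads of the library (CPM), intestine had 4111 and muscle 77.7 for the sum, and P5 and P10 organoids had 7.43 and 8.80. The organoid sums were 0.181% and 0.214% of the intestine. Since there were no replicates, no difference below has a test, and the intervals, all at 95%, cover counting error only. In such bulk RNA, fewer cells of a type and less RNA per cell cannot be told apart.

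**Figure D1:**
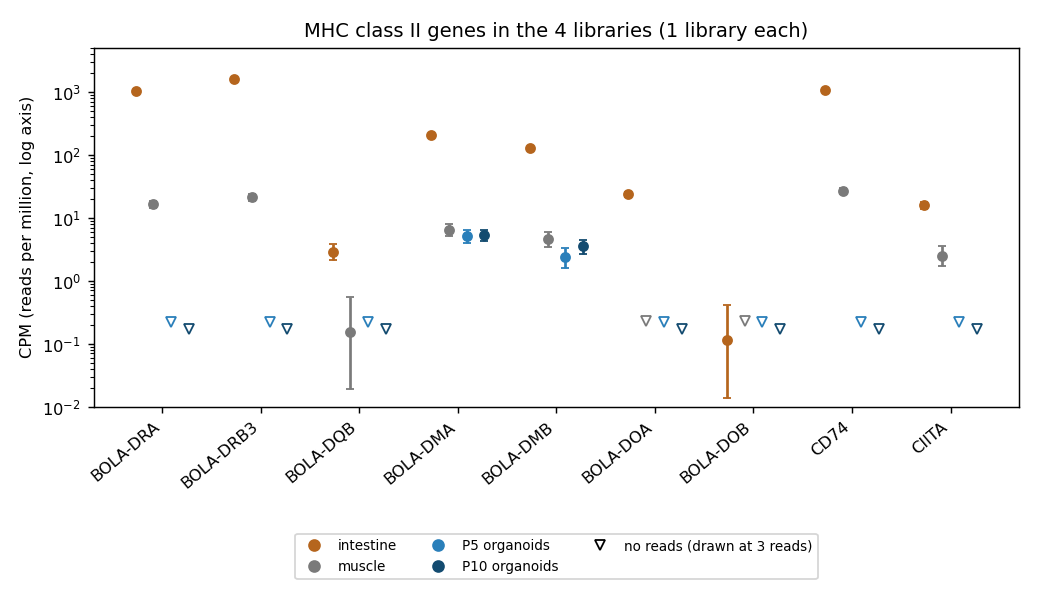
CPM of the 9 class II genes in each library on a log axis, with 95% Clopper-Pearson intervals for genes with a read. Open triangles mark libraries with no read and are drawn at the CPM of 3 reads. BOLA-DMA and BOLA-DMB are the only genes with filled points in the organoid libraries.

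Library totals ranged from 12917720 reads (muscle) to 17776273 (intestine), with 13599831 at P5 and 17730571 at P10, so 3 reads, the number taken as the limit of detection, were 0.169 to 0.232 CPM. Ribosomal RNA from the RN18S1 row made up 23.6% of muscle reads and 0.264% to 4.81% elsewhere. The tissue names were set against marker genes. All 10 skeletal muscle markers were above 3 reads in muscle and summed to 52511 CPM there, and all 10 epithelial markers were above 3 reads in intestine and both organoid libraries. Fold changes and log2 differences below are on the scale of quantile-normalised counts plus 1 unless CPM is named, and a fold against a library with no read is a lower bound set at 3 reads.

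The antigen-binding chains were abundant in intestine and had no read in either organoid library. BOLA-DRA, the alpha chain of the DR molecule, had 18609 reads in intestine (1047 CPM, interval 1032 to 1062), 210 in muscle (16.3 CPM, 14.1 to 18.6) and 0 in P5 and P10 organoids. BOLA-DRB3, the main DR beta chain of cattle, had 28674 reads in intestine (1613 CPM), 272 in muscle (21.1 CPM) and 0 in both organoid libraries. A count of 0 leaves up to 0.271 CPM at P5 and 0.208 CPM at P10. Both DR chains thus stood in one order, intestine above muscle above organoids, and the organoid libraries could not be ordered.

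BOLA-DRA was at least 3967-fold lower in P5 organoids and at least 2326-fold lower in P10 organoids than in intestine. By CPM these bounds were 4746-fold and 6187-fold. The bounds for BOLA-DRB3 were 6069-fold at P5 and 3558-fold at P10, and 7312-fold and 9533-fold by CPM. The P10 bounds are the smaller on the quantile scale because 3 reads have a log2 value of 2.86 there and 2.09 at P5, so the 2 organoid bounds do not order the libraries. BOLA-DQB, a beta chain of the DQ molecule, was low throughout, with 51 reads in intestine (2.87 CPM, 2.14 to 3.77), 2 in muscle and 0 in both organoid libraries. Its bounds against intestine were 6.88-fold at P5 and 4.03-fold at P10, and 13.0-fold and 17.0-fold by CPM.

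CD74, the invariant chain, had 19046 reads in intestine (1071 CPM), 347 in muscle (26.9 CPM) and 0 in both organoid libraries. It was at least 4019-fold lower than intestine at P5 and at least 2356-fold lower at P10, by CPM at least 4857-fold and 6332-fold. Few rows this abundant in intestine had no read in the organoids. Of 183 rows with at least 10000 reads in intestine, 10 had no read in either organoid library, and CD74, BOLA-DRA and BOLA-DRB3 were 3 of these 10. Of 2681 rows with at least 1000 reads, 49 had none.

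The DM genes were the exception. BOLA-DMA had 3714 reads in intestine (209 CPM, 202 to 216), 82 in muscle (6.35 CPM, 5.05 to 7.88), 69 at P5 (5.07 CPM, 3.95 to 6.42) and 94 at P10 (5.30 CPM, 4.28 to 6.49). BOLA-DMB had 2291 reads in intestine (129 CPM), 59 in muscle (4.57 CPM), 32 at P5 (2.35 CPM) and 62 at P10 (3.50 CPM). Intestine stood above the other 3 libraries for both genes, and the CPM intervals of BOLA-DMA in muscle and in the organoids overlapped.

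Against intestine, BOLA-DMA was lower by a log2 difference of -5.45 (-5.77 to -5.14) at P5 and -5.42 (-5.69 to -5.20) at P10, or 2.43% (1.89 to 3.08) and 2.54% (2.05 to 3.11) of the intestine CPM. BOLA-DMB differed by -5.65 (-6.15 to -5.23) at P5 and -5.18 (-5.47 to -4.87) at P10, or 1.83% and 2.71% of the intestine CPM. Between P10 and P5, BOLA-DMA differed by 0.03 (-0.37 to 0.42) and BOLA-DMB by 0.48 (-0.03 to 1.06). Both intervals include 0, and the sign for BOLA-DMA changed with the scaling.

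The make-up of the class II reads differed accordingly. BOLA-DMA and BOLA-DMB together took 8.22% (8.02 to 8.42) of the reads of the 9 genes in intestine and 14.0% (12.0 to 16.3) in muscle. They took all of them in the organoids, with lower limits of 96.4% at P5 and 97.7% at P10. For each read of BOLA-DRA there were 0.200 reads of BOLA-DMA in intestine and 0.390 (0.299 to 0.506) in muscle, against at least 23.0 at P5 and at least 31.3 at P10. These are ratios of reads within a library, so no scaling enters them. The ratio of BOLA-DMA to BOLA-DMB reads was 1.62 (1.54 to 1.71) in intestine, 1.39 (0.983 to 1.98) in muscle, 2.16 (1.40 to 3.39) at P5 and 1.52 (1.09 to 2.12) at P10, and these intervals overlap.

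**Figure D2:**
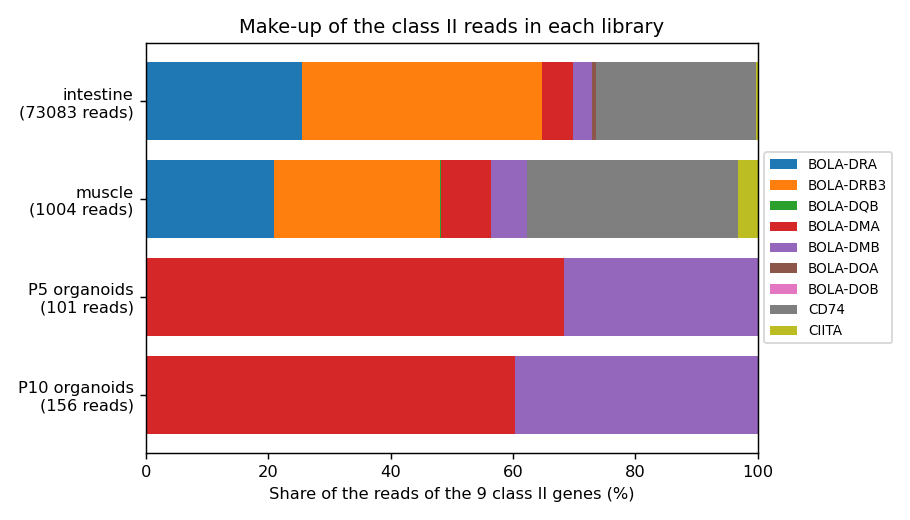
Share of the reads of the 9 class II genes taken by each gene, in percent, with 1 bar for each library and its total of class II reads beside the name. DR chains and CD74 fill most of the intestine and muscle bars, while BOLA-DMA (68.3% at P5 and 60.3% at P10) and BOLA-DMB fill the organoid bars.

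Of the DO inhibitors, BOLA-DOA had 417 reads in intestine (23.5 CPM) and 0 in muscle and both organoid libraries. It was at least 82.2-fold lower than intestine at P5 and at least 48.2-fold lower at P10, by CPM at least 106-fold and 139-fold. Relative to BOLA-DMA reads, BOLA-DOA reads were 0.112 (0.101 to 0.124) in intestine and at most 0.0435 at P5 and 0.0319 at P10. BOLA-DOB had 2 reads in intestine and none elsewhere, so it was at or under the limit of detection in every library and has no fold.

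CIITA, which does not bind DNA itself but is recruited by the factors on class II promoters, had 279 reads in intestine (15.7 CPM), 32 in muscle (2.48 CPM) and 0 in both organoid libraries. It was at least 53.1-fold lower than intestine at P5 and at least 31.1-fold lower at P10, by CPM at least 71.2-fold and 92.8-fold. For each BOLA-DRA read there were 0.0150 (0.0133 to 0.0169) CIITA reads in intestine and 0.152 (0.102 to 0.222) in muscle.

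Counted together, 8 of the 9 genes had at least 10 reads in intestine or organoids, and all 8 were past 2-fold lower at P5, where 20.4% of 17783 rows were, and at P10, where 21.6% of 17803 rows were. Of these 8, 6 reached 10 reads through the intestine alone and so could only be lower. The median log2 difference of the 8 genes, with those at no read set at 3 reads, was -6.05 at P5 and -5.51 at P10, beside 0.11 and 0.17 over all rows. Only BOLA-DMA and BOLA-DMB could be compared between P10 and P5, and neither was past 2-fold, where 31.5% of 16131 rows were.

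The class II genes were lower in muscle than in intestine. All 8 genes that could be compared, of which BOLA-DOA and BOLA-DQB reached 10 reads through intestine alone, were past 2-fold higher in intestine, where 26.7% of 17559 rows were, with a median log2 difference of 4.16 beside -0.04 over all rows. The log2 difference was 5.0 (4.83 to 5.17) for BOLA-DRA, 5.30 (5.15 to 5.45) for BOLA-DRB3, 4.41 (4.28 to 4.54) for CD74, 3.90 (3.61 to 4.21) for BOLA-DMA and 3.60 (3.25 to 3.98) for BOLA-DMB. By CPM these genes were 64.4-fold, 76.6-fold, 39.9-fold, 32.9-fold and 28.2-fold higher in the same order, larger on this scale for all 5. The log2 difference of CIITA was 1.34 (0.78 to 1.98), a 2.54-fold difference that by CPM was 6.34-fold. BOLA-DOA was at least 41.1-fold higher in intestine, by CPM at least 101-fold. For BOLA-DQB the CPM ratio of intestine to muscle, from 51 and 2 reads, was 18.5 with an interval of 4.87 to 157.

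The proportions among the genes also differed between these tissues. For each BOLA-DRA read there were 1.02 (1.0 to 1.04) CD74 reads in intestine and 1.65 (1.39 to 1.97) in muscle, while BOLA-DRB3 gave 1.54 (1.51 to 1.57) and 1.30 (1.08 to 1.56). CD74 took the largest share of class II reads in muscle, 34.6% (31.6 to 37.6), and BOLA-DRB3 in intestine, 39.2% (38.9 to 39.6). Each tissue is a single library here, so the spread of these ratios between animals is unknown.

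Set against muscle, 6 of 6 genes that could be compared were past 2-fold lower at P5, where 27.3% of 16840 rows were, and 6 of 6 at P10, where 28.5% of 16771 rows were. Of the 6, 4 reached 10 reads through muscle alone and so could only be lower. BOLA-DRA was at least 124-fold lower at P5 and 72.7-fold lower at P10, BOLA-DRB3 at least 154-fold and 90.5-fold, CD74 at least 189-fold and 111-fold, and CIITA at least 20.9-fold and 12.3-fold. By CPM the P5 bounds were 73.7-fold for BOLA-DRA, 95.5-fold for BOLA-DRB3, 122-fold for CD74 and 11.2-fold for CIITA. The calls for the DM genes depended on the scaling. BOLA-DMA was lower by -1.55 at P5 and -1.52 at P10 on the log2 quantile scale, but by CPM it was 79.9% (57.2 to 111) and 83.5% (61.4 to 114) of muscle. BOLA-DMB was lower by -2.05 and -1.57, but by CPM it was 51.5% (32.4 to 80.5) and 76.6% (52.7 to 111) of muscle, so that with CPM 4 of the 6 genes were past 2-fold.

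The 8 other class II rows with at least 10 reads in a library summed to 5185 reads in intestine, 86 in muscle, 32 at P5 and 3 at P10. Of these, LOC100848815 was recognised as a DQA gene from a RefSeq synonym after its values were seen. Since reads with several alignments were counted, the split among near-identical DR beta, DQ alpha and DQ beta copies is uncertain. BOLA-DQA2, an alpha chain of DQ, led with 4660 reads in intestine (262 CPM), 82 in muscle, 3 at P5 and 0 at P10. Its CPM ratio of intestine to P5 was 1188 (406 to 5765), and it was at least 589-fold lower than intestine at P10. The DQ beta rows were low beside it, as BOLA-DQB and BLA-DQB had 51 and 115 reads in intestine. LOC100848815, also a DQ alpha row, had 202 in intestine and none elsewhere. BOLA-DRB2 had 129 reads in intestine and 0, 0 and 1 in muscle, P5 and P10, and BOLA-DQA5 had 35 in intestine and 0, 2 and 0.

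DSB, a class II beta chain gene found in ruminants, was the only one of these rows with more reads at P5 than in intestine. It had 16 reads in intestine, 0 in muscle, 23 at P5 and 1 at P10. The log2 difference of P5 and intestine was 1.85 (0.83 to 2.85), but by CPM P5 was 188% of intestine with an interval of 95 to 381. BOLA-DYA had 11, 0, 4 and 1 reads in intestine, muscle, P5 and P10, and BOLA-DYB 17, 0, 0 and 0.

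The class II rows lie in 2 clusters in the order of genes of the RefSeq table for ARS-UCD2.0. The cluster with the DQ and DR genes has 8 of these rows, from BOLA-DQA2 to BOLA-DRA, and summed to 52475 reads in intestine, 570 in muscle, 5 at P5 and 1 at P10. None of its rows was above 3 reads in an organoid library. The other cluster has 7 rows, DSB, BOLA-DYA, BOLA-DYB, BOLA-DOB, BOLA-DMB, BOLA-DMA and BOLA-DOA, and summed to 6468, 141, 128 and 158 reads. In it 4 rows were above 3 reads at P5 and 2 at P10.

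Genes of the class I pathway that lie within this last cluster had reads in the organoids. TAP1 and TAP2 form the transporter that carries peptides to class I molecules, and PSMB8 and PSMB9 are subunits of the immunoproteasome. These genes, chosen after their values were seen for their place between BOLA-DOB and BOLA-DMB, had 1377 (TAP1), 1457 (TAP2), 1157 (PSMB8) and 3426 (PSMB9) reads in intestine. At P5 they had 733, 548, 652 and 2863 reads in the same order, and at P10 990, 542, 920 and 4369. The log2 difference from intestine was -0.76 for TAP1, -1.25 for TAP2, -0.67 for PSMB8 and -0.16 for PSMB9 at P5, and -0.79, -1.74, -0.64 and 0.07 at P10. B2M, the light chain of class I molecules, lies elsewhere, was also chosen after its values were seen, and had 58020 reads in intestine, 40394 at P5 and 11834 at P10, a log2 difference of 0.13 at P5, where it was 91.0% of intestine by CPM, and -2.33 (-2.35 to -2.31) at P10. BRD2, the neighbour of BOLA-DMA on its other side, had 1704 reads in intestine, 648 in muscle, 1915 at P5 and 3171 at P10. Whether reads of neighbouring genes were counted on the DM rows was not tested.

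The factors that bind class II promoters and recruit CIITA were present in the organoids. All 7 genes of this list (RFX5, RFXANK and RFXAP of the RFX complex, NFYA, NFYB and NFYC of the CCAAT-binding complex, and CREB1) were above 3 reads in intestine and in both organoid libraries. At P5 none of the 7 was past 2-fold from intestine, where 20.4% of all rows were lower and 24.9% higher, with a median log2 difference of 0.33. At P10 RFXANK (1.04, 0.84 to 1.25) and NFYA (1.16, 0.75 to 1.56) were past 2-fold higher and none was lower, where 28.0% of all rows were higher and 21.6% lower, so 2 of 7 is near the share of all rows. The median was 0.30, and by CPM NFYA was 199% of intestine. RFX5, the DNA-binding subunit of the RFX complex, had 133 reads in intestine, 2 in muscle, 110 at P5 and 121 at P10. Muscle, which had reads of the DR chains and CD74, was thus at the limit of detection for RFX5, and the organoids, which had none, were not.

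The interferon-gamma pathway was also represented in the organoids. The 5 genes described, those of the receptor (IFNGR1 and IFNGR2), its kinases (JAK1 and JAK2) and the transcription factor IRF1, were above 3 reads in every library. At P5 none was past 2-fold from intestine, where 20.4% of all rows were lower and 24.9% higher, although by CPM IFNGR1 was 220% of intestine. The median log2 difference was -0.02, beside 0.11 over all rows. At P10 IFNGR2 (-2.26, -2.42 to -2.10) and JAK1 (-1.39, -1.48 to -1.30) were past 2-fold lower, where 21.6% of all rows were. None was past 2-fold higher, where 28.0% of all rows were. The median was -0.85, beside 0.17 over all rows. IFNGR1, the ligand-binding chain, had 1303 reads in intestine, 205 in muscle, 2197 at P5 and 904 at P10, a log2 difference of 0.92 (0.82 to 1.03) at P5 and -0.85 (-0.97 to -0.71) at P10. IRF1 had 1079 reads in intestine, 964 at P5 and 1184 at P10 and was within 2-fold of intestine on both scales.

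Of 7 genes that process antigen or CD74 in the endosome, 5 were past 2-fold lower and 1 was past 2-fold higher than intestine at P5, where 20.4% of all rows were lower and 24.9% higher. At P10 there were also 5 lower and 1 higher, where 21.6% and 28.0% of all rows were, but not with the same members. LGMN, a protease that opens antigens and CD74 to further cuts, was past 2-fold lower at P5 (-2.01) but not at P10 (-0.73), and CTSD, an aspartic cathepsin, was at -0.01 at P5 and -1.60 at P10. The medians of the list were -1.27 and -1.23. CTSS, the cathepsin that makes the late cuts in CD74, had 6203 reads in intestine, 312 in muscle, 1358 at P5 and 353 at P10, a log2 difference of -2.08 (-2.18 to -2.0) at P5 and -4.49 (-4.65 to -4.35) at P10. CTSL, the cathepsin that does this work in thymic epithelium, went the other way, with 38 reads in intestine, 0 in muscle, 106 at P5 and 315 at P10, a log2 difference of 2.41 (1.85 to 3.00) and 3.40 (2.87 to 3.95). IFI30, a thiol reductase that unfolds antigens, differed by -1.27 and -1.09. By CPM 3 of the calls were not past 2-fold, those of CTSB, at 59.8% of intestine at P5 and 52.7% at P10, and of IFI30 at P10, at 57.7%.

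The MARCH ligases mark class II molecules for degradation. MARCH1, the form of dendritic and B cells, had 379 reads in intestine, 23 in muscle, 12 at P5 and 14 at P10, a log2 difference of -4.32 (-5.28 to -3.51) at P5. MARCH8, which is broadly expressed, had 160, 57, 219 and 159 reads and differed by 0.93 at P5 and 0.02 at P10. Of 6 costimulatory or coinhibitory ligands, 4 were past 2-fold lower than intestine at P5, beside 20.4% of all rows, and 3 at P10, beside 21.6%. Of these ligands, CD86 and CD274 reached 10 reads through intestine alone, as did PDCD1LG2 at P10, and so could only be lower. CD86, typical of antigen-presenting cells, had 413 reads in intestine, 38 in muscle, 7 at P5 and 1 at P10. CD80 and CD40 were within 2-fold of intestine in both organoid libraries on the quantile scale, with CD40 at 130 reads in intestine, 44 at P5 and 129 at P10, and by CPM CD40 was 44.2% of intestine at P5.

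**Figure D3:**
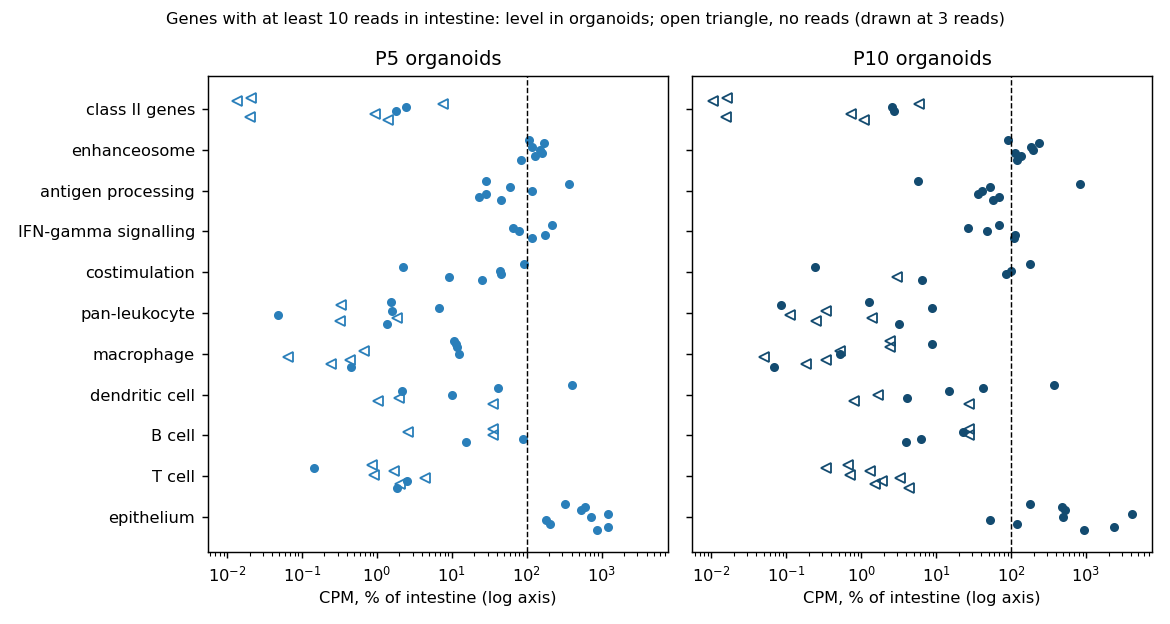
CPM in P5 organoids (left) and P10 organoids (right) as a percentage of the CPM in intestine, on log axes, for the genes of each list with at least 10 reads in intestine. Each point is 1 gene, open triangles are genes with no read, drawn at 3 reads, and the dashed line is the intestine level. Most class II, leukocyte, macrophage and T cell genes lie far to the left, the enhanceosome genes (RFX, NFY and CREB1) lie between 82.8% and 239% of intestine, the interferon-gamma genes between 26.3% (IFNGR2 at P10) and 220% (IFNGR1 at P5), and epithelial genes lie mostly to the right.

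Pan-leukocyte and macrophage markers were lower in the organoids together with the class II genes. On the quantile scale, B cell and dendritic cell lists were mixed, and some of their genes were too low in intestine to be called lower. The 8 pan-leukocyte genes summed to 725 CPM in intestine, 53.0 in muscle, 15.6 at P5 and 18.3 at P10, and 3 of the 8 were above 3 reads in each organoid library. PTPRC, which encodes CD45, had 3394 reads in intestine, 150 in muscle, 40 at P5 and 43 at P10. All 8 were past 2-fold lower than intestine at P5, beside 20.4% of all rows, and at P10, beside 21.6%. CORO1A, LAPTM5, ITGB2, TYROBP and FCER1G reached 10 reads through intestine alone, as did CD53 at P10, and so could only be lower. The 9 macrophage genes summed to 644 CPM in intestine, 74.6 in muscle, 6.18 at P5 and 1.35 at P10, with CSF1R, C1QA, C1QB and C1QC at 0 in both organoid libraries. Another 5 were above 3 reads at P5, namely MRC1 (37 reads), CD68 (21), CD163 (11), CD14 (10) and AIF1 (5). Only CD68, with 21 reads, was above 3 reads at P10. The 8 T cell genes summed to 141 CPM in intestine, 4.18 in muscle, 0.368 at P5 and 0 at P10.

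Of the 6 B cell genes, 2 were past 2-fold lower and 1 higher than intestine at P5. There 20.4% of all rows were lower and 24.9% higher. Of the 5 compared at P10, 2 were lower and none higher, where 21.6% and 28.0% of all rows were. Under the alternatives named below, up to 4 were lower and up to 2 higher at P5. At P10 up to 5 were lower and 0 higher. MS4A1, CD79B and BLK reached 10 reads through intestine alone, as did CD79A at P5 and CD22 at P10. MS4A1 and CD79B had no read in either organoid library but only 11 reads each in intestine. On the quantile scale 11 reads in intestine had a log2 value of 2.46, while 3 reads had 2.09 at P5 and 2.86 at P10. MS4A1 and CD79B, and CD1A of the dendritic cell list, thus could not be called lower at either passage. Nor could CD22 at P10, with a log2 value of 3.04 in intestine. CD79A had 152, 16, 0 and 35 reads in intestine, muscle, P5 and P10, and BLK had 51, 1, 6 and 2. PAX5 had 2, 2, 11 and 1 reads in the same order, and CD22 had 16, 0, 11 and 1. The 6 B cell genes summed to 13.7 CPM in intestine, 1.47 in muscle, 2.06 at P5 and 2.20 at P10. The 5 plasma cell genes, of which XBP1 is also used by secretory epithelium, summed to 5118 CPM in intestine, 39.5 in muscle, 115 at P5 and 221 at P10. XBP1 alone had 113 CPM at P5 and 215 at P10. JCHAIN had 4877 CPM in intestine, 8.52 in muscle, 1.32 at P5 and 4.62 at P10. Of the 7 dendritic cell genes that could be compared, 4 were past 2-fold lower and 1 higher at P5. The same counts were found at P10. The shares of all rows were 20.4% lower and 24.9% higher at P5, and 21.6% and 28.0% at P10. Under the alternatives, 4 to 6 were lower and 1 was higher at each passage. CLEC9A, ITGAX, LAMP3 and CD1A reached 10 reads through intestine alone, as did ZBTB46 at P10. The 9 dendritic cell genes summed to 54.8 CPM in intestine, 6.89 in muscle, 20.8 at P5 and 19.5 at P10, where most reads came from FLT3, with 82 reads in intestine, 5 in muscle, 250 at P5 and 304 at P10. In contrast, the 10 epithelial genes summed to 3173 CPM in intestine, 27.2 in muscle, 12595 at P5 and 10349 at P10. Past 2-fold, 9 were higher and 0 lower than intestine at P5, and 7 were higher and 1 lower at P10. The lower gene was KRT20 (-1.17, 52.7% of intestine by CPM), while EPCAM (0.62) and VIL1 (0.00) were within 2-fold at P10. CDX2, with 4 reads in intestine, reached 10 reads through the organoids alone. The part of these cell types in the class II levels was not tested.

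Relative to PTPRC reads within a library, the class II genes differed in pattern. For each PTPRC read there were 5.48 BOLA-DRA reads in intestine and 1.40 in muscle, and at most 0.0750 at P5 and 0.0698 at P10. BOLA-DMA gave 1.09 (1.04 to 1.15) in intestine, 0.547 (0.412 to 0.720) in muscle, 1.73 (1.15 to 2.61) at P5 and 2.19 (1.51 to 3.21) at P10. BOLA-DMB gave 0.675 (0.640 to 0.712) in intestine, 0.393 in muscle, 0.80 (0.486 to 1.31) at P5 and 1.44 (0.962 to 2.18) at P10. The ratios of BOLA-DMA and BOLA-DMB to PTPRC were thus higher at P10 than in intestine beyond counting error. At P5 the BOLA-DMA interval met that of intestine at 1.15, and the BOLA-DMB interval included the intestine value. The BOLA-DRA ratio was lower in both organoid libraries. The pattern depends on the leukocyte gene taken. By CPM, PTPRC was 1.54% of intestine at P5 and 1.27% at P10. LCP1 was 6.65% and 8.85%, above BOLA-DMA at 2.43% and 2.54%, while LAPTM5 had 1 and 0 reads. CIITA gave 0.0822 (0.0725 to 0.0929) in intestine, and its limits of 0.0750 at P5 and 0.0698 at P10 lie close to that value, so a lower CIITA level per PTPRC read was hardly detectable at this depth.

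The rows with the profile most like BOLA-DRA over the 4 libraries, by the Euclidean distance of centred log2 values, were C1QA (1.63), S100G (1.66), MPTX (1.77), SRGN (2.28) and LOC112441982 (2.37). Those most like CD74 were C1QA (1.41), S100G (1.92), MPTX (2.17), SRGN (2.41) and LOC100297676 (2.49). All 6 of these rows had no read in either organoid library, which the choice by distance to BOLA-DRA and CD74, also without a read there, favours. C1QA, a chain of complement C1q made by macrophages, had 6027 reads in intestine and 332 in muscle. S100G, the calcium-binding protein of absorptive enterocytes, had 69863 and 182, and SRGN, a proteoglycan of blood cell granules, had 2750 and 82.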

How the data were processed

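Single QuantSeq libraries of small intestine, muscle, P5 and P10 intestinal organoids were compared. The authors mapped single-end reads using Bowtie2, counted unique and multiple alignments per gene by Bedtools coverage, and deposited whole-number counts without normalisation. The genome build and annotation are not given in the sources used here. Multiple alignments make counts of near-identical class II copies uncertain, and 3′ counts were not divided by length.

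Of 29792 rows, 22200 had a read. Their counts were quantile-normalised over the 4 libraries, the method the study names, and used as log2(value + 1). The implementation was checked against limma 3.58.1 and tested on simulated data. CPM was computed from the deposited counts and library totals. A library with 3 reads or fewer was at the floor and was set to 3 reads for bounds, medians and calls, and a fold against 1 to 3 reads was given as a CPM ratio. A call was a difference past 2-fold among rows with at least 10 reads in either library. CPM and shares have 95% Clopper-Pearson intervals, CPM ratios exact binomial intervals, and log2 differences Poisson limits mapped through each quantile curve. PCR copies are not independent molecules, so all cover counting error only. No test was made, as each group has 1 library.

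Genes named were the 9 genes, other class II rows with at least 10 reads, lists for the enhanceosome, antigen processing, interferon-gamma signalling, turnover, costimulation and cell types, and the 5 rows nearest BOLA-DRA and CD74 among rows with at least 50 reads. Genes and lists were chosen with earlier results of these data known. The alternatives were CPM, TMM and upper-quartile scaling (edgeR 4.0.16), CPM without RN18S1, pseudocounts of 0.1 and 5, only rows with at least 10 reads in any library, all rows with no filter, and rows summed by symbol. In the lists for interferon-gamma signalling and B cells, 1 gene each is not reported here and was left out of their sums, counts and medians. Promoter motifs were not analysed here. Gene order came from RefSeq for ARS-UCD2.0. Tables were handled with pandas 2.3.3 under Python 3.11.15 (numpy 2.4.6), intervals with scipy 1.17.1, figures with matplotlib 3.10.9 and normalisation in R 4.3.3.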

Additional observations from a re-analysis of the deposited data

Results flagged for a closer look

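IFNGR1, the ligand-binding chain of the interferon-gamma receptor, stood on opposite sides of the intestine in the organoid libraries, with a log2 difference of 0.92 at P5 and -0.85 at P10. With 1 library at each passage, the difference between the passages was not tested.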

How the results depend on the processing

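Under the 9 alternatives, the 8 genes past 2-fold lower than intestine in each organoid library and higher in intestine than in muscle stayed 8. Between P10 and P5 only 2 genes, BOLA-DMA and BOLA-DMB, could be compared, and 0 were past 2-fold. Against muscle the lowest count was 4 of 6. Of 38 member differences, 1 changed sign, that of BOLA-DMA between P10 and P5. The medians moved by more than counting error in places. The median of P10 against intestine was -6.36 by CPM, -6.49 with TMM, -6.48 with upper-quartile scaling, -6.39 by CPM without RN18S1 and -5.22 with a pseudocount of 5. That of intestine against muscle was 5.17 by CPM, 4.00 with upper-quartile scaling and 4.84 by CPM without RN18S1. That of P5 against muscle was -4.50 by CPM, -4.80 without RN18S1 and -4.75 with a pseudocount of 5, and that of P10 against muscle -5.91 with TMM, -6.07 with upper-quartile scaling and -4.30 with a pseudocount of 5. The cause was not tested. CPM moved the median of all rows for intestine against muscle from -0.04 to 1.25, and among rows past 2-fold the share higher in intestine went from 49.7% to 83.3%. For P5 against muscle that share went from 53.7% to 76.4% and for P10 from 54.3% to 75.5%, while for P5 against intestine it went from 55.0% to 40.5% with TMM and for P10 from 56.4% to 40.7% with upper-quartile scaling. No paired analysis was possible because each group has 1 library. Genes under about 10 reads, such as BOLA-DOB, could not be ordered at this depth.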
